A study of Mus musculus with 3 samples.

Results

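The genes described here are those of stem cell identity and self-renewal, a list of 35 genes known to be enriched in the long-term stem cells of blood (LT-HSCs), from which the usual sorting markers were left out. Members were matched by gene symbol to the deposited expression table, and 34 of the 35 had a probe set among 25206 in all, each belonging to a single gene. The transporter gene Slc22a3 was not analysed here, and Neo1 and Clec1a stayed under the detection level on every array, so 32 members could be described. The LT-HSCs came from the bone marrow of female C57Bl/6 mice aged 8 to 10 weeks. One group was non-irradiated, one had been given 8 Gy of total body irradiation (TBI) labelled CDR, read here as conventional dose rate, and one 8 Gy as FLASH, irradiation at an ultra-high dose rate. All samples are labelled as taken 15 days post TBI, and 10000 LT-HSCs were isolated per the labels' protocols. Each group had 1 Affymetrix array, so no value has a replicate check and no test was possible. The sorting gate, the number of mice behind a sample and whether mice were pooled are not stated in the labels.

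LT-HSCs are rare, mostly resting marrow cells that can rebuild the whole blood system, and this capacity is called self-renewal. A small set of transcription factors, among them HLF, MECOM, PRDM16 and MEIS1, is required to keep it. Surface receptors such as TIE2 (gene Tek) and ROBO4 tie the cells to their niche in the marrow, and the pumps encoded by Abcg2 and Abcb1a expel dyes and drugs. Several of the genes, among them Tek, Robo4, Myct1 and Fgd5, are also active in endothelial cells. Total body irradiation damages stem cells, and survivors divide to restore the blood.

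RefSeq promoter windows (build GRCm38.p6, 250 bases before to 50 after a gene's start) matched 30 of the 35 members with 37 windows. The bases before the start are shown for 3 genes with much lower signal on both irradiated arrays, Hlf, Pdzk1ip1 and Myct1, and for Clca3a1, the one member that read clearly higher on them. Capitals mark matches on either strand to the motifs searched.
Hlf: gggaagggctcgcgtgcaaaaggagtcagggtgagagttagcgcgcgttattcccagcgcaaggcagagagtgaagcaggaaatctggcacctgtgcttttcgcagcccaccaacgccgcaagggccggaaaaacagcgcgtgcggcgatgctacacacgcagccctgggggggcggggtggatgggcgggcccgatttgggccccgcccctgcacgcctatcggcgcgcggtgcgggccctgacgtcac
Pdzk1ip1: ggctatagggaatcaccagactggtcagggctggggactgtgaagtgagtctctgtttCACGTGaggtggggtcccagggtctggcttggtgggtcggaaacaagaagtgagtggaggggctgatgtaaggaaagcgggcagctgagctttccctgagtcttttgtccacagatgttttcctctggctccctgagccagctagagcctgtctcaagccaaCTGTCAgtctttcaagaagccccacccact
Myct1: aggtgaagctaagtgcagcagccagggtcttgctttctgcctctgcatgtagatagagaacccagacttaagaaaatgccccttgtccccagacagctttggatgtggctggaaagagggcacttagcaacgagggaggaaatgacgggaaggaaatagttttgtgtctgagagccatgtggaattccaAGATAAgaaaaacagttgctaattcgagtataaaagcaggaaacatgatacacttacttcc
Clca3a1: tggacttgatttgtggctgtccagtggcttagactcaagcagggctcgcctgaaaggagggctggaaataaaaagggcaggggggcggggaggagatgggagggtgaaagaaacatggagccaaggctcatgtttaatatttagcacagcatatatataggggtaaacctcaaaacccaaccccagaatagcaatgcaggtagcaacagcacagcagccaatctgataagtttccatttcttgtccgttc
These stretches are chr11:90390918-90391167 (minus strand) for Hlf, chr4:115088458-115088707 (plus strand) for Pdzk1ip1, chr10:5593478-5593727 (plus strand) for Myct1 and chr3:144760978-144761227 (minus strand) for Clca3a1, each written 5′ to 3′ along its gene. The capitals are an E-box (CACGTG) and, on the opposite strand, a MEIS-type motif (TGACAG) in Pdzk1ip1, and a GATA-type motif (AGATAA) in Myct1. In whole windows, TGACAG was found in 10 of 37 member windows (27.0%) and in 19.2% of all 32851 windows. AGATAA stood in 3 (8.11%, against 11.2%), CACGTG in 2 (5.41%, against 7.15%) and the ETS-type motif CGGAAGT in 1 (2.7%, against 6.42%). The HLF core TTACGTA and the RUNX-type motif TGTGGTT stood in 0 member windows, against 0.475% and 5.27% of all. None of these motifs contains another. Member windows had a median GC content of 55.7% and all windows 52.7%.

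The values are the authors' processed levels on a log scale, taken as log2 from their range. A gene counted as detected in a comparison when the brighter array read above the 95th percentile of 1364 receptor genes of smell and pheromone sensing (olfactory, vomeronasal and trace amine receptors), assumed silent in these cells, which was 4.15 on the non-irradiated, 4.16 on CDR and 4.22 on FLASH. A gene was called lower or higher when it differed at least 2-fold, a log2 difference of 1. Above the detection level lay 13316 named genes on the non-irradiated array, 13200 on CDR and 13054 on FLASH, and the median log2 difference of detected genes was 0.00 in all 3 comparisons. The measured markers of LT-HSC gates, Kit, Procr and Slamf1, read above the detection level on all 3 arrays. So did Cd34, Cd48 and Flt3, which gates for LT-HSCs usually exclude or keep low, and the neutrophil precursor genes Mpo and Elane. On the non-irradiated array Mpo read 12.36, Elane 11.03 and Cd34 11.25, against 10.25 for Kit, 7.15 for Procr and 6.13 for Slamf1. How far levels of different probe sets can be compared was not tested. The T cell genes Cd3e and Cd3g were under the detection level on every array.

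Most stem cell genes read lower on each irradiated array than on the non-irradiated one. On CDR 11 of 32 detected members were at least 2-fold lower than without irradiation, where 2.36% of all 13448 detected genes were, and 0 were at least 2-fold higher, where 0.766% of all genes were. The 11 were Hlf, Meis1, Mycn, Gata3, Angpt1, Robo4, Trpc6, Pdzk1ip1, Gprasp2, Myct1 and Ctla2b. By any amount 27 members lay below (all genes 30.4%), 1 above (all genes 34.7%) and 4 were tied within 0.001. After median centring or quantile normalisation 27 lay below and 5 above, where 74.6% and 60.3% of all genes then lay above. The members' median log2 difference as deposited was -0.65, a factor of 1.57. At least 1.5-fold lower were 18 members, against 5.38% of all genes, and 1 was at least 1.5-fold higher, against 3.2%. In bulk RNA of this kind, fewer cells that express a gene and less of its RNA per cell cannot be told apart.

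The FLASH array was compared with the same non-irradiated array. Here 7 of 32 detected members were at least 2-fold lower, against 1.75% of all 13288 detected genes, and 1 was at least 2-fold higher, against 1.17%. The lower ones were Hlf, Trpc6, Pdzk1ip1, Gprasp2, Myct1, Ctla2b and Vldlr, and the higher one was Clca3a1. The members' median difference was -0.46, with 26 below (all genes 32.9%), 2 above (33.8%) and 4 tied, or 26 below and 6 above after either of those scalings (69.5% and 58.4% of all genes above). At least 1.5-fold lower were 12 members, against 5.3% of all genes, and 1 was at least 1.5-fold higher, against 3.59%. Both comparisons rest on the one non-irradiated array, so the members' values are given side by side and their likeness is not read as a result. Nearest to the 2-fold limit were Gata3 (-1.01) just inside and Vldlr (-0.90) just outside on the CDR array, and Vldlr (-1.15) and Angpt1 (-0.94) on the FLASH array. Gprasp2, whose deposited values put it inside on both, was too dim on the irradiated arrays for its difference to be placed.

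**Figure D1:**
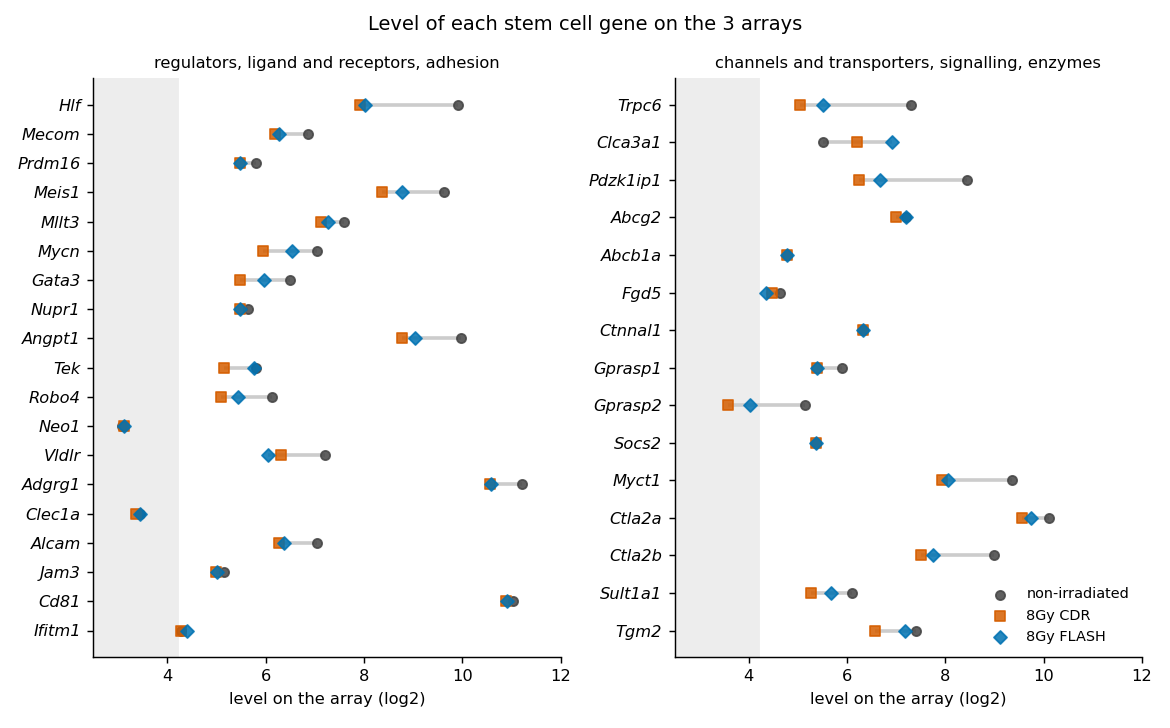
Log2 level of the 34 measured members on the non-irradiated (grey circles), 8Gy CDR (orange squares) and 8Gy FLASH (blue diamonds) arrays, grouped by role, with grey lines spanning the 3 values and a shaded zone up to the FLASH detection level of 4.22. The non-irradiated circle lies to the right of both other symbols for most genes, and Clca3a1 shows the opposite order.

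**Figure D2:**
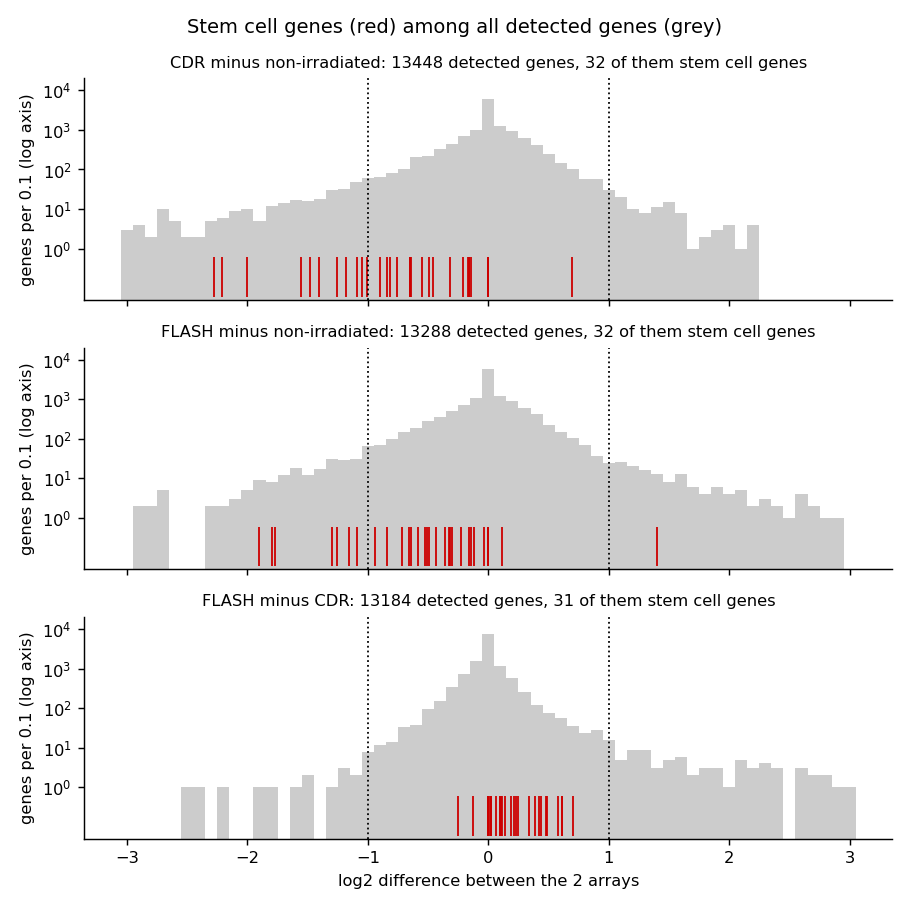
Histograms of the log2 difference of all detected genes in each comparison (grey, logarithmic count axis, bins of 0.1), with a red tick for each stem cell gene and dotted lines at 2-fold. Differences beyond the axis are not drawn. The red ticks spread to the left of 0 in the upper panels, and in the FLASH against CDR panel all 31 lie between -0.25 and 0.70.

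All 8 transcription and chromatin regulators read lower on CDR (all genes 30.4%) and on FLASH (32.9%). Their median log2 difference was -0.83 on CDR and -0.52 on FLASH. The share of all genes lower on both arrays was not counted, and both comparisons use the same non-irradiated array. Hlf, a PAR bZIP transcription factor that maintains stem cell function, had a log2 level of 9.92 on the non-irradiated, 7.92 on CDR and 8.02 on FLASH. It was thus 4.0-fold lower on CDR and 3.74-fold lower on FLASH, the largest difference of any member on the FLASH array. Meis1, a homeobox partner of HOX proteins, read 9.62, 8.36 and 8.78 in the same order, 2.40-fold lower on CDR and 1.79-fold lower on FLASH. The FLASH value lay between the others, nearer to CDR. Mycn, a MYC family factor, read 7.04, 5.95 and 6.53, and Gata3, a zinc finger factor best known from T cells, 6.49, 5.48 and 5.96. Both were just over 2-fold lower on the CDR array (2.13-fold and 2.01-fold) and 1.42-fold and 1.44-fold lower on the FLASH array. After median centring or quantile normalisation Gata3 was no longer called on CDR, at -0.95 and -0.94.

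The remaining regulators stayed within 2-fold. Mecom, the zinc finger factor also called EVI1, read 6.86 on the non-irradiated, 6.20 on CDR and 6.27 on FLASH, a log2 difference of -0.65 and -0.58. Mllt3, a reader of histone marks in transcription elongation complexes, read 7.59, 7.13 and 7.27. Prdm16, a relative of Mecom, read 5.80 and then 5.49 on both irradiated arrays. Nupr1, a small stress-responsive nuclear protein gene, differed least in this group, at 5.65 and then 5.49 on both. Its difference of -0.16 was smaller in size than 0.21, the standard deviation over the receptor genes assumed silent in either comparison.

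Among the ligand and receptor genes, all 5 detected ones read lower on CDR (all genes 30.4%) and on FLASH (32.9%). Tek differed least on FLASH. Angpt1, the ligand of TIE2, had log2 levels of 9.97 on the non-irradiated, 8.78 on CDR and 9.03 on FLASH, 2.27-fold and 1.92-fold lower. Tek, the TIE2 receptor, read 5.80, 5.15 and 5.76. It was 1.56-fold lower on CDR, while the FLASH value lay within 0.03 of the non-irradiated one. Robo4, a guidance receptor used in stem cell homing, read 6.14, 5.09 and 5.43, called lower on CDR at 2.07-fold and not on FLASH at 1.64-fold. Its CDR difference also fell just short of the limit after median centring (-0.99) or quantile normalisation (-0.98). The CDR values of Tek and Robo4 lay under 5.42, the 99th percentile of the receptor genes assumed silent on that array.

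Vldlr, a lipoprotein receptor that also binds reelin, was called lower on the FLASH array and lay just outside the 2-fold limit on CDR. It read 7.21 on the non-irradiated, 6.31 on CDR and 6.05 on FLASH, 1.86-fold and 2.22-fold lower, and the difference between the irradiated arrays was -0.25. With an offset of 32 added before the log, its FLASH difference from non-irradiated was -0.87 and no longer called. Adgrg1, the adhesion G protein-coupled receptor GPR56, read 11.22, 10.57 and 10.58, about equally low on both. Neo1, the netrin and RGM receptor neogenin, read 3.09, 3.12 and 3.12, and the lectin receptor gene Clec1a 3.44, 3.36 and 3.44. Both stayed under every detection level, so these probe sets give no information on change.

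The 4 adhesion and tetraspanin-type genes were all within 2-fold on both irradiated arrays. Alcam (CD166), an adhesion molecule, read 7.04 on the non-irradiated, 6.28 on CDR and 6.37 on FLASH, 1.69-fold and 1.58-fold lower. The junctional adhesion gene Jam3 read 5.16, 5.0 and 5.02, and the tetraspanin gene Cd81 11.03, 10.88 and 10.91. Ifitm1, of the interferon-induced transmembrane family, read 4.29, 4.29 and 4.40, just above the detection level. In this group only Alcam differed by more than 1.5-fold.

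The widest range was found among the channel and transporter genes. Trpc6, a calcium-permeable cation channel gene, read 7.31 on the non-irradiated, 5.04 on CDR and 5.51 on FLASH. It was 4.84-fold lower on CDR, the largest difference of any member as deposited and rank 63 counted from the lowest of all detected genes. On FLASH it was 3.48-fold lower. The CDR value lay above the detection level but under the 99th percentile of the receptor genes assumed silent, 5.42 on that array. With an offset of 32 added before the log, the CDR difference of Trpc6 was -1.56, smaller than those of Hlf (-1.87) and Pdzk1ip1 (-1.83). Pdzk1ip1, whose small membrane protein MAP17 binds PDZ proteins, read 8.45, 6.24 and 6.68, 4.64-fold and 3.42-fold lower.

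Clca3a1, of the calcium-activated chloride channel regulator family, ran the other way at 5.52 on the non-irradiated, 6.21 on CDR and 6.92 on FLASH. It was 1.62-fold higher on CDR and 2.64-fold higher on FLASH, and lowest on the non-irradiated array. With an offset of 32 added before the log its FLASH difference was 0.98, just under the 2-fold limit. The drug efflux pumps differed little. Abcg2, the pump behind the side population phenotype, read 7.20, 6.99 and 7.20, and Abcb1a, which encodes a P-glycoprotein, 4.79 on all 3 arrays.

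The signalling and scaffold genes ranged from called lower to tied on every array. Myct1, a MYC target gene that encodes a membrane protein, read 9.35 on the non-irradiated, 7.94 on CDR and 8.05 on FLASH, 2.64-fold and 2.46-fold lower. Gprasp2, which sorts G protein-coupled receptors to lysosomes, read 5.14, 3.58 and 4.04. Both irradiated values lay under the detection level, so the gene was at least 1.97-fold lower on CDR and at least 1.89-fold lower on FLASH. When dim values were set to the detection level instead, it was no longer called, and 10 and 6 members remained at least 2-fold lower, against 2.14% and 1.58% of all genes.

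Its relative Gprasp1, which lies near it on the X chromosome, read 5.90 and then 5.40 on both irradiated arrays. Fgd5, an exchange factor of CDC42 that marks stem cells in reporter mice, read 4.64, 4.47 and 4.35, close to the detection level. Ctnnal1, the catenin relative alpha-catulin, read 6.33, and Socs2, a suppressor of cytokine signalling, 5.37, on every array. With Abcb1a these were 3 of 32 detected members with 1 value on all 3 arrays, while 27.1% of the 13514 genes detected in any comparison had such a tie.

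The 4 enzyme and protease inhibitor genes all read lower on CDR (all genes 30.4%) and on FLASH (32.9%). Ctla2b, an inhibitor of cathepsin-type proteases, read 8.99 on the non-irradiated, 7.50 on CDR and 7.74 on FLASH, 2.80-fold and 2.38-fold lower. Its neighbouring copy Ctla2a read 10.11, 9.56 and 9.75, 1.47-fold and 1.29-fold lower. Their promoter windows were identical at 256 of 278 aligned bases (92.1%). Transcripts and probes were not compared here, so whether their probe sets share signal was not tested. Sult1a1, a phenol sulfotransferase gene, read 6.10, 5.28 and 5.67. Tgm2, tissue transglutaminase, read 7.41, 6.57 and 7.18, 1.79-fold lower on CDR and 1.17-fold lower on FLASH.

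Set directly against each other, the irradiated arrays differed by less than 2-fold for every one of the 31 stem cell genes detected in that comparison. Among all 13184 detected genes, 0.85% were at least 2-fold higher on FLASH and 0.144% at least 2-fold lower. By any amount 23 members were higher on the FLASH array, where 25.6% of all genes were, 2 were lower, where 31.8% of all genes were, and 6 were tied within 0.001. This split moved with the scaling of the arrays, since small shifts turn ties into differences and reverse the sign of very small differences. It was 20 higher and 11 lower after median centring (all genes 20.5% and 79.1%), 22 and 9 after quantile normalisation (35.6% and 60.4%), and 27 and 2 after cyclic loess (53.2% and 34.8%). The median log2 difference was 0.11 for the members and 0.00 for all detected genes. The members at least 1.5-fold higher on FLASH were Clca3a1 (0.70), Tek (0.61) and Tgm2 (0.61), 3 of 31 against 1.85% of all genes, and Mycn at 0.58 was just under that limit. At least 1.5-fold lower were 0 members, against 0.781% of all genes.

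By role, the channel and transporter genes had the highest median in this comparison, 0.44, with Trpc6 at 0.48 and Pdzk1ip1 at 0.44. The enzyme and inhibitor genes had 0.31, the ligand and receptor genes 0.24 and the regulators 0.12. Among the regulators Mycn, Gata3 (0.48) and Meis1 (0.42) lay higher on FLASH, while Hlf (0.10) and Mecom (0.07) hardly differed and Prdm16 and Nupr1 were tied. The signalling genes had a median of 0.00, and the 2 members lower on FLASH were Vldlr at -0.25 and Fgd5 at -0.13. The array number limits all of these values, and a difference of this size has no replicate spread to be set against.

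**Figure D3:**
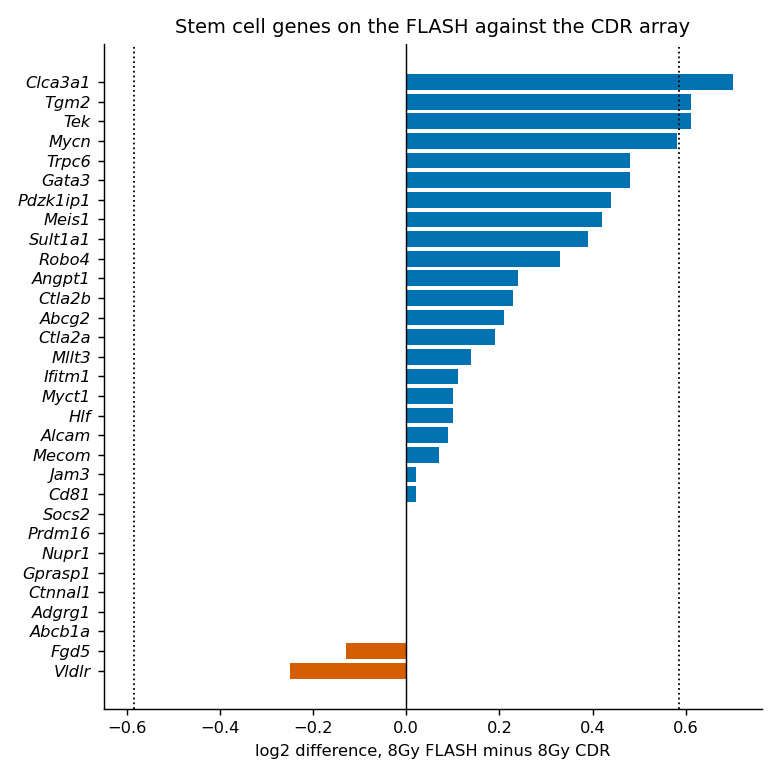
Log2 difference between the 8Gy FLASH and 8Gy CDR arrays for the 31 stem cell genes detected in that comparison, as bars from 0, with dotted lines at 1.5-fold. Clca3a1 (0.70), Tek (0.61) and Tgm2 (0.61) pass the right line, and Vldlr (-0.25) and Fgd5 (-0.13) point left.

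Genes that work with the members were mostly within 2-fold, as were most of all detected genes. Of 51 measured family members, ligands and cofactors, 41 were detected against the non-irradiated array on CDR and 40 on FLASH. On each irradiated array 3 were at least 2-fold lower, where 2.36% of all genes were on CDR and 1.75% on FLASH, 0 were at least 2-fold higher, and the medians were 0.00 on CDR and -0.01 on FLASH. Tie1, the partner receptor of TIE2, read 7.36 on the non-irradiated, 6.14 on CDR and 6.24 on FLASH. F11r, the junctional adhesion molecule JAM-A and a relative of Jam3, read 8.10, 6.37 and 6.60. Armcx6, of the family of Gprasp1 and its X chromosome neighbours, read 7.21, 6.13 and 6.08, also at least 2-fold lower on each.

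Other relatives of the regulators stayed within 2-fold. Gata2, a GATA factor of stem and progenitor cells, read 10.04 on the non-irradiated, 9.11 on CDR and 9.43 on FLASH, while Gata1, the erythroid GATA factor, read 8.11, 8.48 and 8.75. Nfil3, a repressor that binds the same sites as Hlf, read 5.62, 6.45 and 6.15, with the non-irradiated array lowest. Myc read 10.64, 10.64 and 10.63, unlike its relative Mycn. Hoxa9, a HOX partner of Meis1, read 7.91, 7.48 and 7.63.

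A further list of genes linked with functional stem cells in single-cell work, without the members, had 23 measured genes of which 19 were detected against the non-irradiated array. On CDR 6 of these 19 were at least 2-fold lower (all genes 2.36%) and 0 at least 2-fold higher (0.766%), with a median of -0.31. On FLASH 3 were lower (1.75%) and 0 higher (1.17%), with a median of -0.46. Ltb, the lymphotoxin beta gene, read 8.25 on the non-irradiated, 5.56 on CDR and 6.57 on FLASH. The FLASH value was 2.0-fold above CDR, the only gene of the list called in that comparison. The sorting marker Procr (EPCR) read 7.15, 5.42 and 6.33, and the lysosomal protease gene Ctsf 6.18, 4.22 and 4.31. The GTPase genes Gimap6 and Gimap1 read 9.19, 7.14 and 7.73, and 6.69, 5.56 and 6.23. For Ltb, Procr and both Gimap genes the FLASH array lay between the others. Pde1b, the other gene called on CDR, was under the detection level on both irradiated arrays and at least 1.3-fold lower on CDR. With dim values raised, 5 of 19 were at least 2-fold lower on CDR, and the list medians were -0.31 on CDR and -0.32 on FLASH.

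Other sorting markers did not all follow the members. Kit, the stem cell factor receptor, read 10.25 on the non-irradiated, 9.78 on CDR and 9.38 on FLASH, and Slamf1 (CD150) 6.13, 6.11 and 6.24. Flt3, a receptor of multipotent progenitors, read 8.69, 7.64 and 7.22, while Cd48 read 9.70, 10.18 and 10.05 and Cd34 11.25, 10.92 and 10.81.

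Markers of other cells and states also differed between the arrays. All 7 measured cell cycle genes read higher on both irradiated arrays, and their summed linear level was 4126 on the non-irradiated, 5697 on CDR and 5988 on FLASH. The 7 measured erythroid genes were also all higher on both, with sums of 2087, 3516 and 3717. By any amount 34.7% of all detected genes lay above on CDR and 33.8% on FLASH. Multipotent and lymphoid-primed progenitor genes were lower at least as far as the members by their medians, -0.83 on CDR and -0.95 on FLASH. Of their 6 detected genes 3 were at least 2-fold lower on CDR (all genes 2.36%) and 2 on FLASH (1.75%). Dntt, the template-free DNA polymerase of lymphoid cells, lay at -2.68 and -2.09 and Ly6d at -1.91 and -0.97. The sums of the progenitor genes were 4532, 3524 and 3313, and Il7r was under the detection level on all 3 arrays. The sums were 1611, 1065 and 1104 for 6 megakaryocyte genes and 603, 904 and 2091 for 7 dendritic cell genes, of which Siglech was not detected. For 9 granulocyte genes, of which Ltf and Ly6g were not detected, they were 12324, 13486 and 12900. Of the 7 detected, 4 lay below and 3 above on each irradiated array, with medians of -0.20 on CDR and -0.03 on FLASH. The 3 genes S100a9, Ngp and Camp were at least 2-fold lower on each (all genes 2.36% and 1.75%), unlike the bright Mpo, Elane and Prtn3, which read higher. The members themselves summed to 11827, 6980 and 7640. The part of these other cells in the members' differences was not tested.

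Endothelial markers bear on Tek, Robo4, Myct1, Fgd5 and Tgm2, which endothelial cells also express. Their summed level was 1101 on the non-irradiated, 981 on CDR and 1133 on FLASH, with 8 of 9 above the detection level on each and Sox17 under it. Against the non-irradiated array 4 of the 8 were below and 4 above on CDR (all genes 30.4% and 34.7%). On FLASH 3 were below and 5 above (32.9% and 33.8%). The FLASH median was 0.63, with 5 of the 8 at least 1.5-fold higher (all genes 3.59%) and Plvap, a gene of fenestrated endothelium, 2.18-fold higher. On FLASH against CDR 6 of the 8 were higher (all genes 25.6%), with a median of 0.55. Cdh5, the endothelial cadherin gene, read 6.05, 6.18 and 7.0, and Emcn, endomucin, which stem cells share, 7.21, 6.27 and 6.21. The brighter markers Pecam1 and Egfl7 read 8.56, 8.35 and 8.34, and 8.39, 8.21 and 8.21. FLASH minus CDR was 0.61 for Tek and Tgm2, 0.33 for Robo4, 0.10 for Myct1 and -0.13 for Fgd5, and 0.70 for Clca3a1. The part of endothelial RNA in these differences was not tested.

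**Figure D4:**
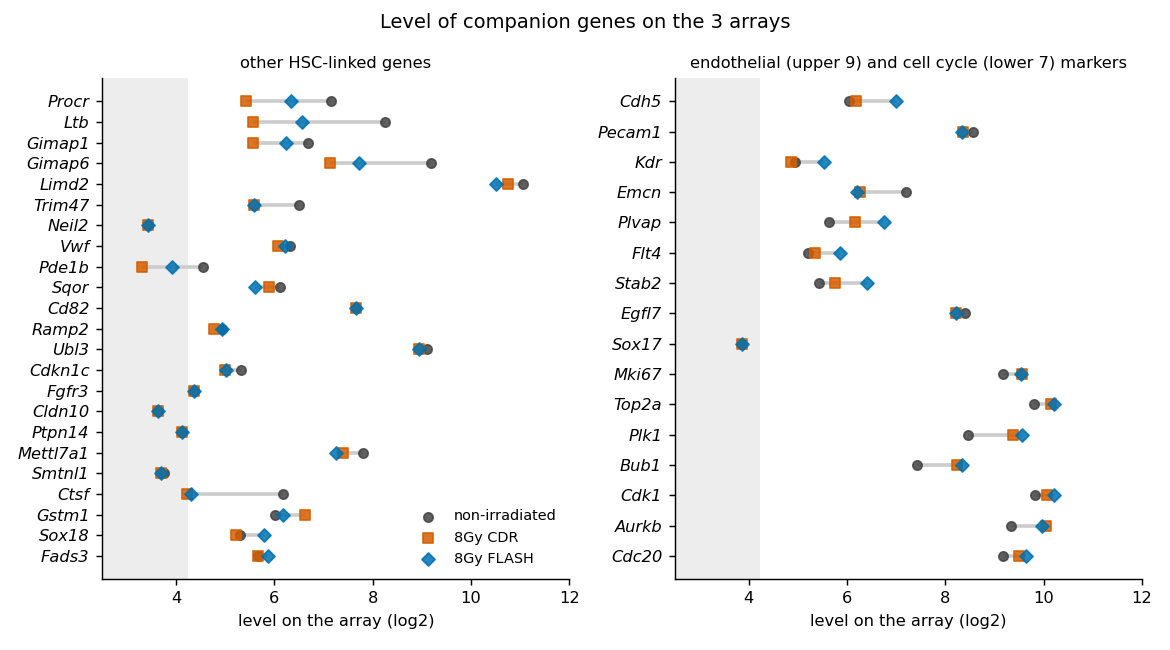
Log2 level of 23 other genes linked with stem cells (left) and of 9 endothelial and 7 cell cycle markers (right) on the non-irradiated (grey circles), 8Gy CDR (orange squares) and 8Gy FLASH (blue diamonds) arrays, with the zone up to the FLASH detection level of 4.22 shaded. Ltb, Procr and Gimap6 show the non-irradiated circle far to the right, the cell cycle genes show it to the left, and Cdh5 shows FLASH to the right at 7.0.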

How the data were processed

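The deposited table holds the authors' processed log2 level of each probe set (log base inferred from its range). Partek is named, with no version, in the submitters' processing notes, and how the arrays were background-corrected, summarised or normalised is not given in the sources used here. Of 25206 probe sets, 23185 had 1 symbol, 0 had several and 2021 had none in the platform's probe table. All 23185 symbols equalled those of RefSeq. Values were used as deposited, and differences are between log2 values of 2 arrays. Where the dimmer array was under its detection level, the fold is a bound against that level. Members, gene lists and naming rules (every member, and from other lists the largest differences and the sorting markers) were chosen with earlier results of these data known. Lists have counts and medians only. Alternatives were median centring, quantile normalisation, cyclic loess (limma 3.58.1, R 4.3.3), an offset of 32, other filters, folds of 1.5 and 3, means, and dim values raised. Only the difference and calling steps were tested on simulated arrays, with changes larger than the 2-fold limit in genes well above detection. Dim genes, changes near the limit, scalings and promoter steps were not tested that way. Python 3.11.15, numpy 2.4.6, pandas 2.3.3, Biopython 1.88 and matplotlib 3.10.9 were used. Protein sequences were not used here.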

Additional observations from a re-analysis of the deposited data

Results flagged for a closer look

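Of the genes in the stem cell, partner and sorting marker lists, 4 that were detected differed from the non-irradiated array in opposite directions on the irradiated arrays, by at least 0.01 each way, and none of them was a member. The difference between the arrays was not tested. Slamf1 read -0.02 on CDR and 0.11 on FLASH, which puts FLASH 0.13 above CDR. Sox18, an endothelial and stem cell transcription factor gene, read -0.08 and 0.49, a FLASH minus CDR difference of 0.58. Armcx5 read 0.42 and -0.03, a difference of -0.45, and the drug pump gene Abcb1b 0.05 and -0.11, a difference of -0.16. The Slamf1 and Abcb1b differences were smaller in size than 0.18, the standard deviation of FLASH minus CDR over the receptor genes assumed silent. Against the non-irradiated array this standard deviation was 0.21 for CDR and for FLASH. Sox18 on CDR, Armcx5 on FLASH, and Slamf1 and Abcb1b on each were smaller in size than that. The share of all detected genes with such opposite signs was not counted.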

How the results depend on the processing

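Directions of the members' medians held under every scaling, filter and summary tried, from -0.79 to -0.52 on CDR and from -0.53 to -0.33 on FLASH against non-irradiated, and from 0.08 to 0.20 for FLASH minus CDR. The count of members lower on CDR was 11 in the reported setting and 7 with an offset of 32, 18 at 1.5-fold and 3 at 3-fold, and 1 member was higher at 1.5-fold. The offset took Mycn, Gata3, Robo4 and Gprasp2 under the limit on CDR, and Vldlr (-0.87) and Gprasp2 (-0.47) on FLASH. On FLASH 7 lower members became 12 at 1.5-fold and 3 at 3-fold. The 1 higher member, Clca3a1, was no longer called with the offset or at 3-fold (0 in both). For FLASH minus CDR 3 members were higher at 1.5-fold. Single members' differences moved by more than the spread of unexpressed genes for 20 of 95 values with the offset, which shrinks differences of dim genes by construction, and for none with median centring, quantile normalisation or cyclic loess. Median centring shifted all genes by at most 0.06. No paired analysis was possible because each group has 1 array, and for the same reason no array could be left out. Signal close to the detection level limits Fgd5, Ifitm1 and Gprasp2. Trpc6, Tek, Robo4, Sult1a1, Jam3, Abcb1a, Gprasp1 and Socs2 also read under 5.42 on CDR, the 99th percentile of the receptor genes assumed silent. The offset left the CDR differences of Tek and Robo4 at -0.37 and -0.64.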
